A study of Mus musculus with 12 samples.

Results

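Myc and its network partners were followed as 9 genes out of the 41457 listed in each library's gene table: Myc, Mycn, Max, Mxd1, Mxd3, Mxd4, Mxi1, Mnt and Mlx. They were chosen by name, and all 9 were found. The libraries were made from the poly(A) RNA of Treg, sorted from spleens as RFP+CD4+ T cells, 3 libraries in each of 4 groups. CD18wt mice carried unfloxed CD18 alleles together with Foxp3Cre and an RFP reporter in the ROSA26 locus. CD18Foxp3 mice carried the same Foxp3Cre and reporter on a CD18 fl/fl background, in which exon 3 of Itgb2, the gene for CD18, is floxed and is removed in cells that express Foxp3. All mice were on a C57BL/6 background and the groups were matched for age and sex, so Cre and the reporter were common to every group. Unstimulated Treg were kept overnight in 5 U/mL recombinant human IL-2 alone. Stimulated Treg received in addition anti-CD3 at 1 μg/mL together with anti-CD28 at 2 μg/mL. The ages of the mice used for these libraries are not given in the sources used here.

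MYC is a basic helix-loop-helix leucine zipper transcription factor that binds DNA only as a dimer with MAX. The MXD proteins (MXD1, MXI1, MXD3 and MXD4) and MNT also dimerise with MAX, bind the same short sequence, CACGTG, and recruit SIN3 and histone deacetylases, so that they act as repressors where MYC acts as an activator. MLX is the dimer partner of MondoA and ChREBP, which sense glucose metabolites, and it can also pair with MXD1, MXD4 and MNT. In T cells MYC is known as a factor that follows antigen receptor and costimulatory signals and that drives growth, ribosome production, nutrient uptake and glycolysis.

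Levels are given as TPM, a transcript abundance in which reads are scaled by transcript length and by library, which allows genes to be set beside each other. Differences were tested on exon reads with the edgeR quasi-likelihood test, and a gene was called where it changed 1.5-fold or more and its p, adjusted by the Benjamini-Hochberg method over all genes tested in that comparison, was 0.01 or less. Libraries held between 10665174 and 19005482 exon reads. Foxp3 ranged from 73.4 to 207 TPM, and the summed level of 6 T and Treg identity markers from 1336 to 3678 TPM. The targeted gene, Itgb2, was at 465, 431 and 387 TPM in unstimulated CD18wt Treg and at 229, 257 and 234 TPM in unstimulated CD18Foxp3 Treg. After stimulation it was at 331, 329 and 330 TPM in CD18wt Treg and at 131, 202 and 183 TPM in CD18Foxp3 Treg, so the genotypes did not overlap in either culture. In 2 groups a library stood apart from its mates. For stimulated CD18Foxp3 replicate 1 the chi-square per gene was 59.5 and 65.0 against the other two, which gave 11.97 between themselves. For unstimulated CD18wt replicate 3, the shallowest library, it was 41.6 and 40.1 against 12.03.

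Of the members, 4 carry the CACGTG sequence close to their own transcription start. RefSeq promoters, 250 bases before to 50 after a start (GRCm38.p6), were held for 8 of the 9 members, and Myc had none in the table. The sequence, which reads the same on both strands, stood in 4 of these 8 genes and in 8.09% of the 27025 genes with a promoter of the same length. Its variant CACGCG, searched on both strands (CACGCG and CGCGTG), was found in 0 of the 8 and in 10.5% of all genes. A match is only a run of letters here, since no binding was measured. The 4 matches are shown with 20 bases on each side, on the strand of the gene and with CACGTG in capitals, because this is the sequence for which the products of these genes compete.
Mxd4: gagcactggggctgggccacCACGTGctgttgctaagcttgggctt
Mnt: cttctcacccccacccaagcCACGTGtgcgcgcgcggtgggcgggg
Mlx: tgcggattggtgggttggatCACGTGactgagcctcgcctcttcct
Max: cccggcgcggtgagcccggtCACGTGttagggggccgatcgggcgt
The Mxd4 match began 219 bases before the start (shown on chr5:34187904-34187949, minus strand). The Mnt match lay 123 bases before it (chr11:74830781-74830826, plus strand), the Mlx match 40 bases before it (chr11:101087230-101087275, plus strand) and the Max match 3 bases before it (chr12:76962226-76962271, minus strand). These distances are to the RefSeq starts. For Max the gene used in the counting starts at 76962201 instead, further from the match.

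Myc itself is a short gene on chromosome 15 of GRCm38 (ENSMUSG00000022346, 61985391 to 61990374, plus strand), and all of its exon reads were placed uniquely. In unstimulated CD18wt Treg it was at 76.1, 115 and 47.6 TPM, from 1312, 2098 and 525 exon reads. In unstimulated CD18Foxp3 Treg it was at 69.7, 85.3 and 72.5 TPM. After anti-CD3 and anti-CD28 it reached 284, 369 and 485 TPM in CD18wt Treg and 334, 381 and 295 TPM in CD18Foxp3 Treg. Every stimulated library lay above every unstimulated one in both genotypes. Myc moved from rank 1542 to rank 356 among all genes in CD18wt Treg, and from 1650 to 397 in CD18Foxp3 Treg, by mean TPM. The spread between replicates was wider in CD18wt Treg, with a coefficient of variation of 42.3% without and 26.6% with stimulation, than in CD18Foxp3 Treg, with 10.9% and 12.9%, a difference that was not tested. In bulk RNA, a change in the share of cells that express a gene and a change in its RNA per cell cannot be told apart. Both TPM and the tests also give levels relative to the rest of each library, and amounts of RNA per cell were not measured.

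**Figure D1:**
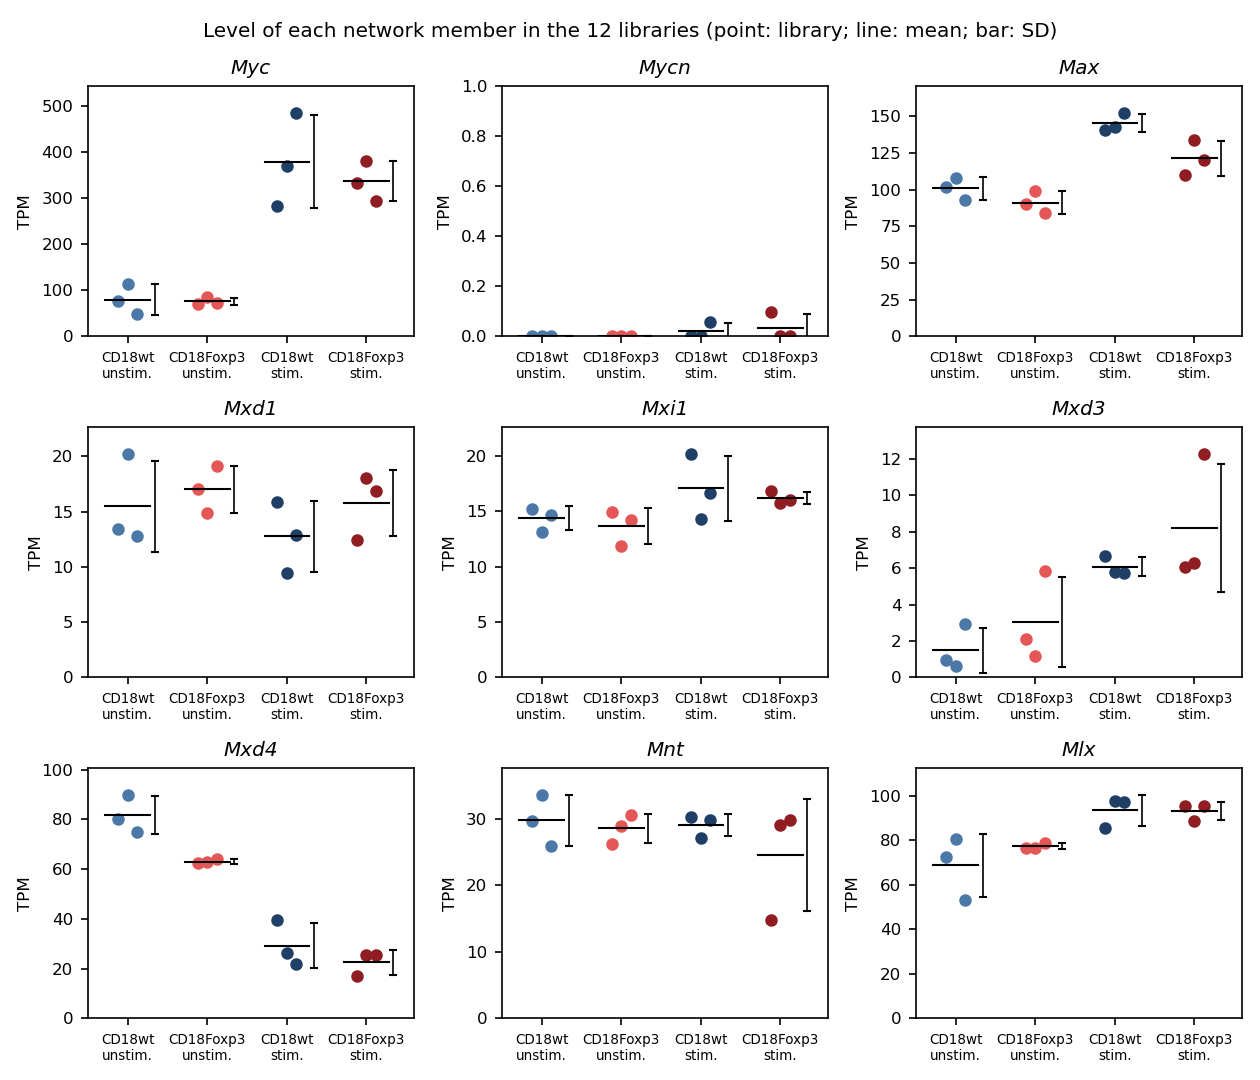
TPM of each of the 9 members (y axis, from 0) in the 4 groups (x axis), with 1 point per library, a line at the mean and a bar for the SD (n = 3). The stimulated libraries lie between 284 and 485 TPM for Myc and between 16.8 and 39.4 TPM for Mxd4, while Mycn stays at or near 0.

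Stimulation raised Myc 3.65-fold in CD18wt Treg (log2 fold change 1.87 with a standard error of 0.31, adjusted p = 0.00157 by edgeR). In CD18Foxp3 Treg it rose 3.44-fold (log2 fold change 1.78, standard error 0.14, adjusted p = 9.10e-06, same test). Of the 8 members tested 2 passed the threshold in CD18wt Treg, where 33.6% of all genes tested did (18.7% higher and 14.9% lower), and the same 2, Myc and Mxd4, passed in CD18Foxp3 Treg, where 38.6% did (20.9% higher and 17.6% lower). By TPM, 4 of the 9 were higher without overlap between the groups and 1 lower in CD18wt Treg, where 62% of genes did not overlap (47.8% higher and 14.2% lower), and 5 were higher and 1 lower in CD18Foxp3 Treg, where 67.1% did not (47.9% and 19.2%). The call of Myc in CD18wt Treg was lost at the adjusted p of 0.01 when unstimulated replicate 1, stimulated replicate 2 or stimulated replicate 3 was left out (adjusted p = 0.0116, 0.0133 and 0.0130, edgeR quasi-likelihood test), with log2 fold changes of 1.82, 1.79 and 1.69.

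Mycn, a paralog of Myc that is used mainly in the embryo and in neural tissue (ENSMUSG00000037169, chromosome 12, 12936093 to 12941914), gave no exon read in 10 of the 12 libraries. It had 1 read in stimulated CD18wt replicate 3 and 2 reads in stimulated CD18Foxp3 replicate 1. A library without a read still allows up to 3, a limit that covers counting error only, and Mycn was not tested in any comparison. Mycl, the remaining paralog, which is no member, did not exceed 0.195 TPM in any library. The Myc family was therefore read almost wholly from Myc.

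Max, the common dimer partner (ENSMUSG00000059436, chromosome 12, 76937269 to 76962201), had the highest mean of the 9 in both unstimulated groups. It stood at 102, 108 and 92.7 TPM in CD18wt Treg and at 90.0, 99.1 and 84.1 TPM in CD18Foxp3 Treg. With stimulation it stood at 141, 143 and 152 TPM in CD18wt Treg and at 110, 134 and 120 TPM in CD18Foxp3 Treg, second to Myc in both. The stimulated libraries lay above the unstimulated ones in both genotypes. TPM placed the median gene higher after stimulation, however, by 0.36 in CD18wt Treg and by 0.31 in CD18Foxp3 Treg on the log2(TPM + 1) scale, against 0.02 and 0.01 for the log2 fold change on the edgeR scale. Relative to that median, the log2 TPM of Max was 0.17 and 0.10 higher. By edgeR its log2 fold change was 0.13 in CD18wt Treg (95% confidence interval -0.13 to 0.39, adjusted p = 0.4004) and 0.04 in CD18Foxp3 Treg (-0.22 to 0.31, adjusted p = 0.768), whereas limma on log2(TPM + 1) gave a difference of 0.53 in CD18wt Treg with an adjusted p of 0.00237, short of the 1.5-fold change that a call needs. Among all called genes in CD18wt Treg, 2234 were higher and 1779 lower by edgeR with TMM factors, 2849 and 1196 by edgeR with library sizes alone, and 3492 and 818 by limma on log2(TPM + 1), which also differs in its test and filter. In CD18Foxp3 Treg these splits were 2516 and 2120, 3158 and 1588, and 3675 and 1147.

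Mxd4, one of the MXD repressors that are common in resting and differentiated cells (ENSMUSG00000037235, chromosome 5, 34173883 to 34187720, minus strand), was the member with the largest fall. In unstimulated CD18wt Treg it was at 80.0, 89.9 and 75.0 TPM, on a par with Myc. In stimulated CD18wt Treg it was at 39.4, 26.4 and 21.9 TPM. The CD18Foxp3 libraries gave 62.2, 62.8 and 64.1 TPM without stimulation and 16.8, 25.4 and 25.3 TPM with it. No stimulated library reached the lowest unstimulated one of its genotype. Mxd4 fell 3.68-fold in CD18wt Treg (log2 fold change -1.88 with a standard error of 0.19, adjusted p = 7.91e-06 by edgeR) and 3.62-fold in CD18Foxp3 Treg (log2 fold change -1.85, standard error 0.15, adjusted p = 1.41e-05, same test). Both calls held in each fit that left out a library and under each alternative tried. Of the reads on its exons, 91.0% were placed uniquely.

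Mxd1 (ENSMUSG00000001156, chromosome 6, 86647042 to 86669161) stood at 13.4, 20.2 and 12.8 TPM in unstimulated and 15.9, 9.46 and 12.9 TPM in stimulated CD18wt Treg. In CD18Foxp3 Treg it stood at 17.1, 14.9 and 19.1 TPM and at 12.4, 18.1 and 16.8 TPM. The groups overlapped in both genotypes. On the edgeR scale stimulation gave log2 fold changes of -0.69 (standard error 0.20, adjusted p = 0.0114) and -0.48 (standard error 0.15, adjusted p = 0.0239), short of the threshold. DESeq2, the likelihood ratio test of edgeR and 5 further alternatives put Mxd1 past the threshold in CD18wt Treg, with log2 fold changes from -0.78 to -0.68, while on the TPM scale the difference was -0.26 with an adjusted p of 0.372 (limma).

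Mxd3, an MXD protein linked to dividing cells (ENSMUSG00000021485, chromosome 13, 55325168 to 55329823, minus strand), was the scarcest of the repressors, with 10 to 149 exon reads per library. It was at 0.932, 0.626 and 2.91 TPM in unstimulated and 6.68, 5.81 and 5.73 TPM in stimulated CD18wt Treg. In CD18Foxp3 Treg it was at 2.13, 1.17 and 5.84 TPM and then at 6.06, 6.30 and 12.3 TPM. Stimulated libraries lay above unstimulated ones in both genotypes, but in each genotype replicate 3 was far above its mates before stimulation. The log2 fold changes were 1.65 (standard error 0.57, adjusted p = 0.0291 by edgeR) and 1.07 (standard error 0.53, adjusted p = 0.112, same test). Without unstimulated CD18wt replicate 3 the value was 2.59, with an adjusted p of 0.00169. Of 11 alternatives, 3 put Mxd3 past the threshold in CD18wt Treg and 2 in CD18Foxp3 Treg. The last 105 bases of Mxd3 overlap Prelid1 on the other strand, a gene with 2353 to 5075 exon reads per library, and the sources used here state no strand in the counting, so reads from that stretch cannot be told apart.

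Mxi1, also called MXD2 (ENSMUSG00000025025, chromosome 19, 53310506 to 53375810), lay between 11.8 and 20.2 TPM in all 12 libraries. By edgeR stimulation gave log2 fold changes of -0.16 (95% confidence interval -0.51 to 0.19) in CD18wt Treg and -0.12 (-0.43 to 0.19) in CD18Foxp3 Treg. They were 0.22 and 0.23 by limma on log2(TPM + 1), so the sign of this small difference follows the scaling.

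Mnt, the most broadly expressed of the repressor partners (ENSMUSG00000000282, chromosome 11, 74830920 to 74845725, plus strand), was at 29.7, 33.6 and 25.9 TPM in unstimulated and at 30.3, 27.1 and 29.7 TPM in stimulated CD18wt Treg. In CD18Foxp3 Treg it was at 26.1, 28.9 and 30.5 TPM and then at 14.8, 29.0 and 29.8 TPM. The low value belonged to stimulated CD18Foxp3 replicate 1, the library that stood apart. By edgeR the log2 fold changes were -0.43 (standard error 0.13, adjusted p = 0.0167) and -0.59 (standard error 0.22, adjusted p = 0.0486), and in CD18Foxp3 Treg without that library the value was -0.35. On the TPM scale the differences were -0.03 and -0.27 (limma on log2(TPM + 1)). Of 11 alternatives, 0 put Mnt past the threshold in CD18wt Treg and 1 in CD18Foxp3 Treg.

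Mlx (ENSMUSG00000017801, chromosome 11, 101087277 to 101092207, plus strand) was at 72.6, 80.6 and 53.1 TPM in unstimulated and 85.4, 97.6 and 97.4 TPM in stimulated CD18wt Treg, and at 76.8, 76.7 and 78.9 TPM and 95.4, 88.7 and 95.6 TPM in CD18Foxp3 Treg. Although the stimulated libraries were the higher ones in TPM, the log2 fold changes by edgeR were 0.05 (95% confidence interval -0.28 to 0.39) and -0.10 (-0.33 to 0.14). Its final 385 bases overlap Psmc3ip on the other strand, and 87.8% of its exon reads were placed uniquely.

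**Figure D2:**
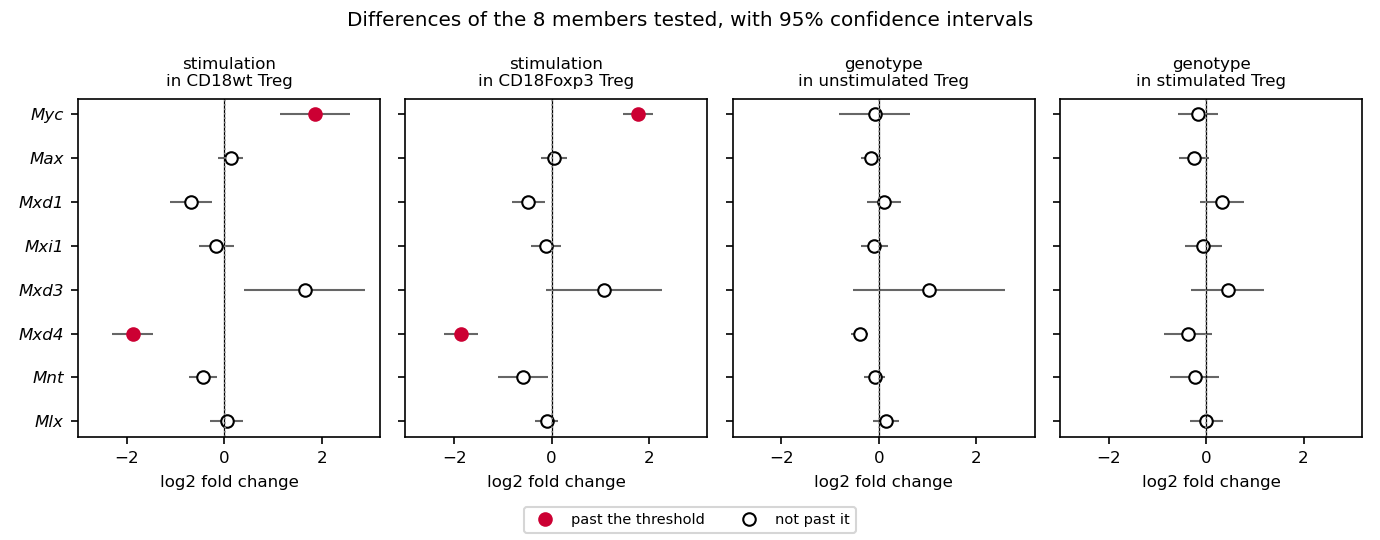
Log2 fold change (x axis) of the 8 members with enough reads to be tested, in 4 comparisons of exon reads by edgeR, with bars for the 95% confidence interval and filled points for members past the threshold. Myc (1.87 and 1.78) and Mxd4 (-1.88 and -1.85) are the filled points in the stimulation panels, and no point is filled in the genotype panels.

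By mean TPM the order in unstimulated CD18wt Treg was Max, Mxd4, Myc, Mlx, Mnt, Mxd1, Mxi1, Mxd3 and Mycn. In that order Mxd4 overlapped Myc, Myc overlapped Mlx and Mxd1 overlapped Mxi1, while all other neighbours were apart in their 3 libraries. The order in unstimulated CD18Foxp3 Treg was Max, Mlx, Myc, Mxd4, Mnt, Mxd1, Mxi1, Mxd3 and Mycn, and there Mlx overlapped Myc and Mxd1 overlapped Mxi1. After stimulation Myc came first, ahead of Max and Mlx with no overlap, in both genotypes. Mxd4 then stood beside Mnt, with overlap in both genotypes, and Mxi1 beside Mxd1, again with overlap in both.

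The balance between Myc and its competitors for Max was described as the summed TPM of Myc and Mycn divided by the summed TPM of Mxd1, Mxd3, Mxd4, Mxi1 and Mnt in the same library. This is a ratio of RNA levels and not of proteins. In unstimulated Treg it was 0.547, 0.728 and 0.363 in CD18wt and 0.569, 0.713 and 0.543 in CD18Foxp3 mice. With stimulation it was 2.53, 4.44 and 5.58 in CD18wt and 4.99, 4.03 and 2.94 in CD18Foxp3 mice. The repressor partners thus had more RNA than Myc in every unstimulated library and less in every stimulated one, and the genotypes overlapped in both cultures. Their summed level was 143 ± 13.4 TPM (SD, n = 3) without and 94.2 ± 15.9 TPM (SD, n = 3) with stimulation in CD18wt Treg, and 125 ± 7.43 TPM (SD, n = 3) and 87.2 ± 17.8 TPM (SD, n = 3) in CD18Foxp3 Treg. Mxd4 made up 57.1% to 57.5% of that sum in unstimulated CD18wt libraries and 25.2% to 35.1% in stimulated ones. In CD18Foxp3 libraries its share was 47.9% to 52.5% and then 25.1% to 26.9%. Summed over Myc, Mycn and the repressors, the RNA of partners per unit of Max was 2.19 ± 0.30 (SD, n = 3) and 3.25 ± 0.47 (SD, n = 3) in CD18wt Treg, and 2.22 ± 0.20 (SD, n = 3) and 3.50 ± 0.18 (SD, n = 3) in CD18Foxp3 Treg.

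**Figure D3:**
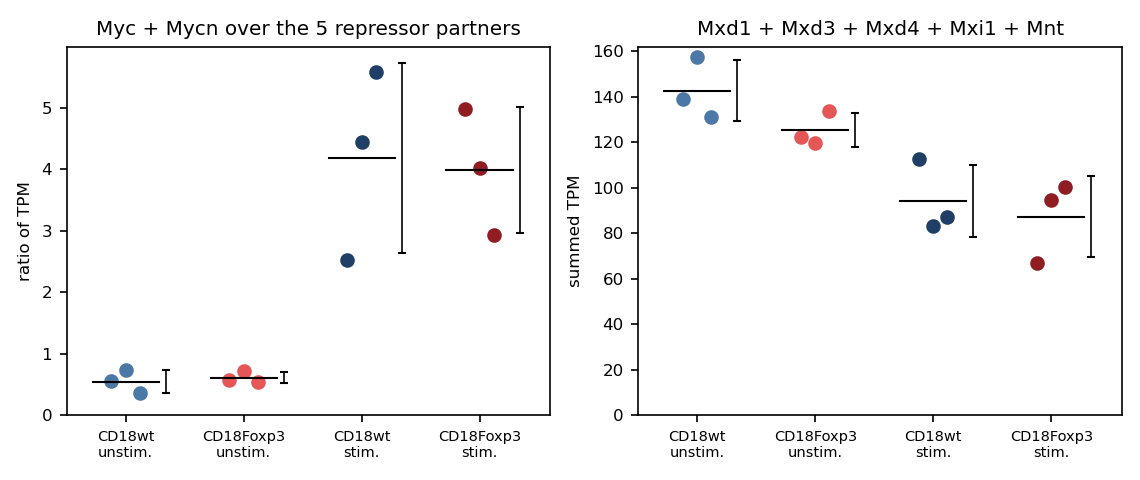
Left, TPM of Myc and Mycn divided by the summed TPM of the 5 repressor partners (y axis), and right, that summed TPM (y axis), in the 4 groups, with 1 point per library, a line at the mean and a bar for the SD (n = 3). The unstimulated ratios lie between 0.363 and 0.728 and the stimulated ones between 2.53 and 5.58.

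The deposited tables also count reads in introns, which come mostly from RNA that is not yet spliced, and reads across exon-exon junctions. Both were tested in fits of their own, chosen after the exon results had been seen. Intron reads of Mxd1 numbered 154, 178 and 25 in unstimulated and 44, 17 and 16 in stimulated CD18wt Treg, and 189, 172 and 162 against 53, 36 and 39 in CD18Foxp3 Treg. The low count of 25 came from the shallowest library, where it made 68.2 per 1000000 intron reads, still above the 63.7, 26.3 and 15.3 of the stimulated CD18wt libraries. Mxd1 intron reads fell in both genotypes, by 2.44 on the log2 scale in CD18wt Treg (adjusted p = 0.00270, edgeR quasi-likelihood test, where 7.80% of genes were called in intron reads) and by 2.59 in CD18Foxp3 Treg (adjusted p = 2.23e-13, same test, 30.4% called). In one fit over both kinds of read, with each library as its own block, the intron response of Mxd1 minus its exon response was -1.86 in CD18wt Treg (standard error 0.51, adjusted p = 0.0446) and -2.05 in CD18Foxp3 Treg (standard error 0.28, adjusted p = 7.12e-06), of which the second passed 0.01. Such a difference reached an adjusted p of 0.01 in 1.70% and 18.7% of genes, and in CD18Foxp3 Treg that of Mxd1 held with each library left out in turn (-2.27 to -1.83).

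For Mxd4 the difference had the other sign. Its intron reads numbered 47, 74 and 21 in unstimulated and 66, 34 and 34 in stimulated CD18wt Treg, and 58, 51 and 49 against 34, 59 and 29 in CD18Foxp3 Treg. The raw counts overlapped in both genotypes. Per 1000000 intron reads the CD18wt groups still overlapped. The CD18Foxp3 groups did not, at 58.4, 65.6 and 58.2 without and 29.3, 56.5 and 37.2 with stimulation. The log2 fold changes were -0.45 (95% confidence interval -1.41 to 0.51, adjusted p = 0.534) in CD18wt and -0.93 (-1.60 to -0.27, adjusted p = 0.0187) in CD18Foxp3 Treg. The intron response of Mxd4 lay above its exon response by 1.36 in CD18wt Treg (standard error 0.35, adjusted p = 0.0312) and by 0.97 in CD18Foxp3 Treg (standard error 0.27, adjusted p = 0.00790). The CD18Foxp3 value passed 0.01 with all libraries, but in 5 of the 6 fits that left out a library it did not (0.74 to 1.09, adjusted p from 0.0096 to 0.080). Junction reads, which come from spliced RNA, gave a log2 fold change of -1.99 and -1.96 for Mxd4, both called (background 32.3% and 36.1%).

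For Myc the intron and exon responses could not be told apart at this depth. Its intron reads numbered 41, 31 and 2 in unstimulated and 46, 76 and 234 in stimulated CD18wt Treg, and 29, 18 and 30 against 96, 89 and 81 in CD18Foxp3 Treg. The log2 fold changes in intron reads were 1.79 (adjusted p = 0.0257) in CD18wt Treg and 1.24 (adjusted p = 0.00130) in CD18Foxp3 Treg. The intron response differed from the exon response by -0.09 (95% confidence interval -1.07 to 0.90) and -0.49 (-1.07 to 0.09). Intron reads of Max were lower after stimulation in CD18Foxp3 Treg, with a log2 fold change of -1.002 (adjusted p = 1.57e-05), and their response differed from that of its exon reads by -0.99 there (adjusted p = 0.000671) and by -0.54 in CD18wt Treg (adjusted p = 0.294). Intron reads of Mnt fell by 1.28 on the log2 scale in CD18Foxp3 Treg (adjusted p = 0.00214), and in CD18wt Treg their log2 fold change was -0.50 (adjusted p = 0.472). Mlx had 0 to 8 intron reads in each unstimulated library and 11 to 36 in each stimulated one. They rose in CD18wt Treg, with a fitted log2 fold change of 5.15 (adjusted p = 0.00567) that rests on 1 read in the 3 unstimulated libraries, and in CD18Foxp3 Treg the value was 1.71 (adjusted p = 0.0159). The Mlx intron response minus its exon response was 5.49 (adjusted p = 0.00679) and 1.89 (adjusted p = 0.00307), but leaving out 1 library raised its adjusted p above 0.01 in 5 of 6 fits in CD18wt and 3 of 6 in CD18Foxp3 Treg. Psmc3ip, which shares the end of Mlx, went from 36 to 70 exon reads in unstimulated to 181 to 280 in stimulated libraries, and its part in the Mlx intron reads was not tested. Mxd3 had 0 to 12 intron reads and was not tested.

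**Figure D4:**
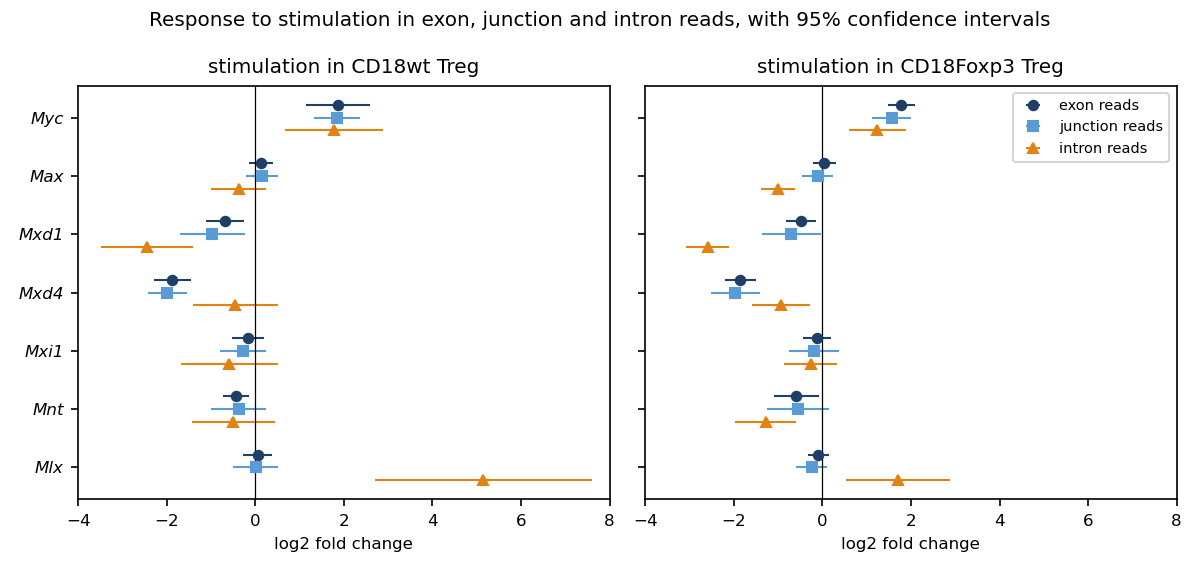
Log2 fold change on stimulation (x axis) of 7 members in exon, junction and intron reads, each from an edgeR fit of its own, with bars for the 95% confidence interval, in CD18wt (left) and CD18Foxp3 (right) Treg. For Mxd1 the intron point (-2.44 and -2.59) lies left of the exon point, for Mxd4 it (-0.45 and -0.93) lies right of it, and for Myc the intervals of the 3 kinds of read overlap.

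No member passed the threshold between the genotypes. In unstimulated Treg 0 of the 8 members tested were called between the genotypes, where 0.135% of all genes were. The largest relative to its error was Mxd4, with 62.2 to 64.1 TPM in CD18Foxp3 and 75.0 to 89.9 TPM in CD18wt Treg, so the groups did not overlap, and 6.9% of genes were lower without overlap in this comparison. It was 1.32-fold lower (log2 fold change -0.40, 95% confidence interval -0.57 to -0.22, adjusted p = 0.0616, edgeR quasi-likelihood test), ranked 63 of 11829 genes by p. The adjusted p ranged from 0.000710 with DESeq2 to 0.913 with all 12 libraries in 1 edgeR fit, the fold change stayed under 1.5 in both, and without unstimulated CD18wt replicate 3 it was 0.00931. Myc had a log2 fold change of -0.09 (95% confidence interval -0.81 to 0.64), an interval that includes a fold change past 1.5 in either direction. For Max (-0.17, 95% confidence interval -0.37 to 0.04), Mxd1 (0.11, -0.24 to 0.46), Mxi1 (-0.09, -0.37 to 0.19), Mnt (-0.09, -0.31 to 0.14) and Mlx (0.15, -0.11 to 0.41) the intervals were narrower, and for Mxd3 (1.03, -0.54 to 2.60) it was the widest. The Mxd3 value was 1.95 without CD18wt replicate 3 and 0.17 without CD18Foxp3 replicate 3.

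In stimulated Treg 0 of the 8 members were called between the genotypes, as for all 11930 genes tested (0%; 583 genes had an unadjusted p under 0.05, and DESeq2 called 22). Myc had a log2 fold change of -0.16 (95% confidence interval -0.57 to 0.25) and Mxd4 of -0.37 (-0.87 to 0.13, adjusted p = 0.998). The values were 0.33 for Mxd1 (-0.12 to 0.77), 0.45 for Mxd3 (-0.30 to 1.196), -0.06 for Mxi1 (-0.44 to 0.32), -0.24 for Mnt (-0.74 to 0.26) and 0.0046 for Mlx (-0.33 to 0.34). Max was lower in every CD18Foxp3 library, at 110 to 134 TPM, than in every CD18wt library, at 141 to 152 TPM, as were 4.41% of all genes. Its log2 fold change was -0.25 (95% confidence interval -0.56 to 0.06, adjusted p = 0.998, edgeR quasi-likelihood test).

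Whether stimulation acted differently in the genotypes was tested as an interaction over all 12 libraries. None of the 8 members passed, nor did any of the 12636 genes tested (0%; 485 had an unadjusted p under 0.05, and DESeq2 called 1). The difference between the log2 responses, CD18Foxp3 minus CD18wt, was -0.09 for Myc (95% confidence interval -0.82 to 0.64) and 0.02 for Mxd4 (-0.54 to 0.58). For Mxd3 it was -0.60 (-2.34 to 1.15) and for Mxd1 0.21 (-0.36 to 0.78). Max (-0.09), Mxi1 (0.03), Mnt (-0.16) and Mlx (-0.15) lay between these. Each stimulation comparison shares its libraries with the genotype comparisons, so these values are not independent of one another.

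Genes reported as activated by MYC were examined as a list of 28, chosen with earlier results of these data known, and all 28 were tested. Of these 27 rose on stimulation in CD18wt Treg and 26 in CD18Foxp3 Treg, with 0 lower, beside 18.7% and 20.9% of all genes higher. The median log2 fold change of the list was 1.38 and 1.57, against 0.02 and 0.01 over all genes. Many of these genes are also induced by other signals of T cell activation, and the part of MYC in their change was not tested. The 6 with the largest change in CD18wt Treg were Tfrc, the transferrin receptor, Hk2, a hexokinase of glycolysis, Srm, the spermidine synthase, Rcc1, the exchange factor of Ran, Odc1, which makes putrescine, and Slc7a5, a large neutral amino acid transporter.

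Tfrc went from 10.7 ± 2.20 TPM (SD, n = 3) to 297 ± 62.7 TPM (SD, n = 3) in CD18wt Treg, a log2 fold change of 4.39, and showed 4.57 in CD18Foxp3 Treg. For Hk2 the log2 fold changes were 3.97 and 4.38, for Srm 3.05 and 3.06, for Rcc1 2.71 and 2.56, for Odc1 2.53 and 2.9996 and for Slc7a5 2.39 and 2.35. All of these passed the threshold in both genotypes. Tert, the telomerase catalytic subunit, did not, with log2 fold changes of 0.19 (adjusted p = 0.715) and 0.81 (adjusted p = 0.0183) at 1.24 to 4.98 TPM. Fbl, the methyltransferase fibrillarin, rose in CD18wt Treg (log2 fold change 1.06, adjusted p = 0.000217) and was not called in CD18Foxp3 Treg (0.92, adjusted p = 0.0590), where stimulated replicate 1 held 84.8 TPM and the highest of its mates 293 TPM. In the genotype comparisons 0 of the 28 were called in unstimulated or stimulated Treg, beside 0.135% and 0% of all genes. The median log2 fold changes of the list were -0.16 and 0.02, against -0.0044 and -0.0029 over all genes.

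Among 7 genes reported as repressed by MYC, of which 6 were tested, 1 rose and 2 fell in each genotype, beside 18.7% higher and 14.9% lower of all genes in CD18wt Treg and 20.9% and 17.6% in CD18Foxp3 Treg. The gene that rose was Cdkn1a, which encodes the cell cycle inhibitor p21 and is also a target of p53, with log2 fold changes of 5.76 and 5.60. Cdkn1b, which encodes p27, fell by 0.88 on the log2 scale in CD18wt and by 1.22 in CD18Foxp3 Treg, and Gadd45a, a stress response gene, fell by 1.80 and 1.79. Txnip and Arrdc4, the arrestin-like genes that MondoA and MLX are known to activate, had log2 fold changes of -2.70 (adjusted p = 0.00460) and -1.15 (adjusted p = 0.0154) in CD18wt Treg, so that 1 of the 2 passed the threshold there, and both passed in CD18Foxp3 Treg. Txnip stood at 746 ± 180 TPM (SD, n = 3) in unstimulated and 151 ± 87.6 TPM (SD, n = 3) in stimulated CD18wt Treg. Of the other network genes, Mlxip, which encodes MondoA, and Mga, a further MAX partner, were not called in either genotype, and Mlxipl, which encodes ChREBP, did not exceed 0.212 TPM.

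Of the 7 corepressor genes recruited by the MXD proteins 2 were higher in each genotype and 0 lower, beside 18.7% and 20.9% of all genes higher in CD18wt and CD18Foxp3 Treg. These were Sap30, a subunit of the SIN3 complex, with log2 fold changes of 2.18 and 1.69, and Hdac2, a histone deacetylase, with 0.74 and 1.01. Of 9 MYC cofactors 5 were higher in CD18wt Treg, beside 18.7% of all genes, and 4 in CD18Foxp3 Treg, beside 20.9%. The helicases Ruvbl1 (1.36 and 1.46) and Ruvbl2 (1.48 and 1.30), Wdr5 (1.15 and 0.86), an adaptor of MYC on chromatin, and Actl6a (0.87 and 0.81) passed in both, and Zbtb17, which encodes MIZ1, passed in CD18wt Treg (0.87, adjusted p = 0.000443) but not in CD18Foxp3 Treg (0.52, adjusted p = 0.134). Of 7 genes for the turnover of MYC protein 3 were higher in each genotype, again beside 18.7% and 20.9% of all genes. Skp2 (3.41 and 3.07) and Fbxw7 (0.70 and 0.79), which encode ubiquitin ligase subunits, and the deubiquitinase Usp36 (1.03 and 0.86) passed in both. Usp28, another deubiquitinase, was lower in CD18Foxp3 Treg (-0.71, adjusted p = 0.00770) and had a log2 fold change of -0.23 (adjusted p = 0.362) in CD18wt Treg. The ligase gene Huwe1 (0.48 and 0.44) and the kinase genes Gsk3a (0.16 and -0.11) and Gsk3b (-0.54 and -0.31) did not pass in either genotype. None of these lists held a gene called between the genotypes in either culture. Of all genes 0.135% were called in unstimulated and 0% in stimulated Treg.

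Most markers of other cells were low, and some moved with stimulation. In unstimulated libraries, however, Cd79b and Cd8b1 (21.2 to 30.4 TPM in CD18wt and 23.5 to 30.2 TPM in CD18Foxp3 Treg) stood above Mxd1, Mxi1 and Mxd3. Of the B cell markers, Cd79b was at 21.5 to 29.2 TPM in unstimulated and 8.17 to 18.0 TPM in stimulated libraries, Cd79a did not exceed 1.84 TPM, and Ms4a1 was under 1 TPM in every library. The 4 CD8 and NK markers summed to 25.3 to 35.7 TPM in unstimulated and 12.6 to 25.8 TPM in stimulated libraries. Most of that was Cd8b1, while Cd8a did not exceed 0.191 TPM in unstimulated and 1.21 TPM in stimulated libraries. Ncr1 was under 1 TPM throughout. Of 5 myeloid markers all but Lyz2 stayed under 1 TPM, and the sum was 1.19 to 15.8 TPM in unstimulated and 0.203 to 2.45 TPM in stimulated libraries. The 3 plasma cell markers summed to at most 4.85 TPM, and the 4 erythroid markers to at most 30.9 TPM, in an unstimulated CD18Foxp3 library. The part of these cells in the values of the members was not tested.

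The genes whose profile lay closest to that of Myc were found by the root mean square difference between log2(TPM + 1) values, each centred on its mean over the 12 libraries, among 9227 genes of at least 5 TPM on average. They were Zmynd19 (0.21), Smyd5 (0.22), Cluh (0.22), which binds mRNAs of mitochondrial proteins, Chchd4 (0.23), which acts in mitochondrial protein import, and Tpst1 (0.23), a tyrosylprotein sulfotransferase. Cluh, for example, was at 18.7 and 18.1 TPM in unstimulated and 92.4 and 81.9 TPM in stimulated CD18wt and CD18Foxp3 Treg, by group mean. Closest to Mxd4 were Ramp1 (0.13), a subunit of the receptor for calcitonin gene-related peptide, Spock2 (0.17), a proteoglycan, Sp6 (0.19), a transcription factor, Abi3 (0.21) and Fsd2 (0.22). Ramp1 was at 30.2 and 23.5 TPM in unstimulated and 11.1 and 7.72 TPM in stimulated CD18wt and CD18Foxp3 Treg. The 12 points of each profile come from 4 groups and share their libraries, so this likeness is a description only.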

How the data were processed

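The authors used CLC Genomics Workbench with default settings to map the reads (GRCm38) and to count them by gene. They deposited, for each of 12 libraries, unnormalized counts of exon, intron and junction reads, and TPM, which sum to 1000000 per library. Use of strand is not given in the sources used here.

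Exon counts were filtered with filterByExpr (minimum count 10), scaled by TMM factors and compared with the quasi-likelihood test of edgeR 4.0.16 in R 4.3.3, each comparison on its own 6 libraries and the interaction on all 12, with Benjamini-Hochberg adjustment. Calls needed a 1.5-fold change and an adjusted p no higher than 0.01. Standard errors are the log2 fold change divided by the square root of F. DESeq2 1.42.0, limma 3.58.1 on log2(TPM + 1), other scalings, filters and read sets, a replicate block and leave-one-out fits were alternatives. Levels are deposited TPM, tabulated with pandas 2.3.3 in Python 3.11.15. The count tests were tested on simulated data in which 200 genes changed, in random directions. Far more genes were called on stimulation, so the simulation does not show how the scaling behaves there.

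The genes named are the members (Mycn had too few reads to be tested), list members past the threshold for short lists, the 6 largest changes of the genes activated by MYC and those not called, and the 5 genes closest in profile to Myc and to the member with the largest fall. Members, lists and tests were chosen with earlier results of these data known. The labels call the replicates biological. Replicates differed by more than counting error (chi-square per gene 6.12 to 65.0, where counting error gives about 1). Promoters are from RefSeq (GRCm38.p6). Some genes of the marker and turnover lists are not reported here.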

Additional observations from a re-analysis of the deposited data

How the results depend on the processing

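Of 720 values of 40 member results under alternatives, 659 kept direction and side of the threshold, 15 newly passed it, 3 no longer passed and 43 changed sign, and the causes were not tested. In CD18wt Treg stimulation put 2 members past the threshold, 4 with no filter on low counts, 4 at an adjusted p of 0.05 and 1 to 3 with a library left out. Genotype and interaction counts of members were 0 in every fit run. Same-numbered libraries deviated together with correlations above 0.1 in only 2 of 3 CD18Foxp3 pairs (0.12, 0.065 and 0.12) and in no CD18wt pair. The numbers were therefore not taken as pairs. Correlations of so few libraries cannot exclude pairing, and the labels do not state it. With a replicate block the count in CD18Foxp3 Treg was 4 instead of 2, adding Mxd3 and Mnt, and each CD18Foxp3 library correlated best with its own number. Without Mnt the ratio of Myc to the repressors was 0.789 in unstimulated CD18Foxp3, 6.17 in stimulated CD18wt and 5.47 in stimulated CD18Foxp3 Treg.

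Signs changed by limma with pseudocounts of 1 and 0.1 for Myc between unstimulated genotypes (0.017 and 0.019), Mlx between stimulated genotypes (-0.0016 and -0.0016, and -0.0014 with all 12 libraries), Mxi1 on stimulation in CD18wt (0.22 and 0.24) and CD18Foxp3 Treg (0.23 and 0.25), and Mlx in CD18Foxp3 Treg (0.26 and 0.27). Library sizes alone gave 0.038 and 0.055 for Mxi1 in CD18wt and CD18Foxp3 Treg and 0.081 for Mlx in CD18Foxp3 Treg. Upper-quartile scaling gave -0.033 for Mlx in CD18wt and -0.023 for Max in CD18Foxp3 Treg. With a library left out, values crossed 0 between unstimulated genotypes for Myc (-0.32 to 0.25), between stimulated genotypes for Myc (-0.34 to 0.00071), Mxi1 (-0.12 to 0.066), Mnt (-0.41 to 0.013) and Mlx (-0.068 to 0.0998), and on stimulation for Mlx in CD18wt (-0.074 to 0.16) and Max in CD18Foxp3 Treg (-0.029 to 0.12). In the interaction they did so for Myc (-0.42 to 0.14), Mxd1 (-0.0041 to 0.38), Mxd3 (-1.52 to 0.24), Mxd4 (-0.18 to 0.26), Mxi1 (-0.051 to 0.15) and Mnt (-0.33 to 0.095). In the intron minus exon response they did so for Myc (-0.34 to 0.56) and Mnt (-0.30 to 0.20) in CD18wt and Mxi1 (-0.35 to 0.17) in CD18Foxp3 Treg.

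Over all genes, 16 were called between unstimulated genotypes, but 86 by DESeq2, 86 by the likelihood ratio test, 134 with no filter, 41 with the replicate block, 33 at an adjusted p of 0.05, 1 and 0 by limma and 0 with all 12 libraries. Between stimulated genotypes the count was 0, against 22, 16, 61 and 1 for the first 4 of these, and in the interaction 0, against 1, 6 and 31 for the first 3. The library-size scaling and the intron and junction fits were chosen after seeing the data. The depth of Mxd3 and of the intron reads limits what those values can show.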
